A study of Homo sapiens with 24 samples.

Results

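A set of 8 RNAs was followed across the 8 treatment groups of this HepG2 series: RN7SL1 and RN7SL2, RN7SK, RPPH1, RMRP, RNY1, RNY3 and VTRNA1-1. They were chosen by symbol as small, structured, non-coding RNAs, mostly transcripts of RNA polymerase III, and all 8 were among the 26475 gene symbols counted. The selection rule names their large share of reads and no response to treatment. The 5 longer RNAs (RN7SL1, RN7SL2, RN7SK, RPPH1 and RMRP) were among the 7 most counted genes of every library, with 43480 to 278067 reads each. RNY1 was counted 199 to 727 times per library, RNY3 5 to 25 times and VTRNA1-1 2 to 16 times, so the label abundant holds for 5 of the 8 in these files and not for RNY3 or VTRNA1-1.

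HepG2 is an established human liver cancer cell line. Without interferon gamma (IFNg), cells received the solvent DMSO, ABBV-075 (50 nM) or ABBV-744 (50 nM or 500 nM). With IFNg, they received it alone or with ABBV-075 (50 nM) or ABBV-744 (again 50 nM or 500 nM), and each of the 8 groups had 3 libraries, 24 in all. ABBV-075 and ABBV-744 inhibit BET proteins, which bind acetylated histones. The methods give 12 h for ABBV-075 and list DMSO with treatments of 24 h, so ABBV-075 and a shorter time cannot be told apart if these libraries followed them. For ABBV-744 and IFNg the durations, and for IFNg the dose, are not given in the sources used here. The groups without IFNg share the DMSO libraries as controls, and the groups with IFNg share the libraries of IFNg alone. The replicates are described as experimental triplicates, so p-values measure the spread between these libraries, which may be technical. All 6 hepatocyte markers examined were present, ALB with 5980 to 14452 counts and AFP with 1884 to 7526. Of 8 markers of other cell types, PTPRC and KRT5 had 0 counts in all 24 libraries, COL1A1, VWF and PECAM1 had 0 to 5, and CD68, ACTA2 and EPCAM had 25 to 358.

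Except for ABBV-744 at 50 nM without IFNg, the treatments could be recognised in genes they are known to act on. With ABBV-075 against DMSO, HEXIM1, whose rise is a common marker of BET inhibition, was higher by 1.41 on the log2 scale (SE 0.12, edgeR adjusted p = 6.81e-06) and MYC was lower (-0.73, SE 0.13, adjusted p = 0.000894). SERPINI1 was higher by 2.12 (SE 0.31, adjusted p = 0.000281). HEXIM1 was also higher with ABBV-744 at 500 nM (0.74, SE 0.11, adjusted p = 1.89e-05), whereas at 50 nM it did not pass the test (0.29, SE 0.12, adjusted p = 0.0816). At 50 nM MYC (-0.19, SE 0.11, adjusted p = 0.224) and SERPINI1 (-0.01, SE 0.35, adjusted p = 0.988) did not pass either. With IFNg, the 5 tested interferon-induced genes of 6 listed rose, among them IRF1 by 4.26 (SE 0.12, adjusted p = 4.53e-27).

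RNA polymerase III makes short RNAs that work as RNA rather than as templates for protein. RN7SL1 and RN7SL2 encode 7SL, the RNA scaffold of the signal recognition particle, which brings ribosomes that make secreted proteins to the endoplasmic reticulum, a heavy task in hepatocytes. RN7SK encodes 7SK, which with HEXIM proteins, LARP7 and MEPCE holds the kinase P-TEFb (CDK9 with cyclin T) inactive, and P-TEFb is the kinase that BET proteins help to bring to genes. RPPH1 is the catalytic RNA of RNase P, which trims the 5' ends of tRNA precursors, and RMRP is the related RNA of RNase MRP, which cuts ribosomal RNA precursors. RNY1 and RNY3 are Y RNAs, bound by the proteins Ro60 and La. VTRNA1-1 is a vault RNA, part of the vault particle together with the protein MVP.

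The sequences below are shown because the length, the base composition and the uniqueness of these RNAs decide how many of their reads can be counted. They are transcripts of GENCODE v44 on GRCh38 (hg38), 5' to 3', in DNA letters. RN7SL1 and RN7SL2, both on chromosome 14, are separate genes whose transcripts of 299 and 300 bases were 98.7% identical, with 295 aligned bases the same.
RN7SK (chr6:52995621-52995948, plus strand) is 328 bases long. Its first 300 bases are shown, with the letters GATC in capitals, since the GAUC repeats of 7SK are where HEXIM1 binds.
RN7SK: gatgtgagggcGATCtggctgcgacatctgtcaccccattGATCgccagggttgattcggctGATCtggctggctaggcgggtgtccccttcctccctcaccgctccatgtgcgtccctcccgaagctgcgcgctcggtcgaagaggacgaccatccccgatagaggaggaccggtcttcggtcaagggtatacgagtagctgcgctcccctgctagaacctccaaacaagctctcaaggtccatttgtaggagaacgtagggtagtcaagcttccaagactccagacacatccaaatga
RPPH1 (chr14:20343075-20343407, minus strand, 333 bases, the first 300 shown) and RMRP (chr9:35657754-35658017, minus strand, 264 bases) carry no capitals.
RPPH1: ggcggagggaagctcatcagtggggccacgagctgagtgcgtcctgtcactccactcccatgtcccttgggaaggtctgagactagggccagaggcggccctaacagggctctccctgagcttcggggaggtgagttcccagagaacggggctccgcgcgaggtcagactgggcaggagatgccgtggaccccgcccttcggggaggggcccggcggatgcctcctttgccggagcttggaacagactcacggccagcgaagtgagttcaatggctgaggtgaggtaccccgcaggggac
RMRP: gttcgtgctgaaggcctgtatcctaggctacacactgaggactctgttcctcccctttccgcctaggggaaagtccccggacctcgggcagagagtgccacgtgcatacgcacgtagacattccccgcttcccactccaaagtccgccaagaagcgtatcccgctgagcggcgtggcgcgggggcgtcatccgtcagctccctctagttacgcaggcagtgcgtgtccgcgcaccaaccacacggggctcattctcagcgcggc
RNY1 (chr7:148987136-148987248, minus strand) lies 3280 bp from RNY3. Capitals mark the run of T at its 3' end, the usual stop signal of RNA polymerase III.
RNY1: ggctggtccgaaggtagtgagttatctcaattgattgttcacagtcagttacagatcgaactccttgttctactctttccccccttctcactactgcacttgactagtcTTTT
VTRNA1-1 (chr5:140711275-140711373, plus strand) has in capitals a match to the B box, an internal promoter element bound by TFIIIC.
VTRNA1-1: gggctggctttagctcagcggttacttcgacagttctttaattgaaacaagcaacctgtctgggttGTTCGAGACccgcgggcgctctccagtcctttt

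The annotation classes RN7SL1, RN7SL2, RNY1, RNY3 and VTRNA1-1 as misc_RNA, RN7SK as snRNA, and RPPH1 and RMRP as ribozymes. All 8 were single stretches of 99 to 333 bases. GC content was 58.2% to 64.6% in the 5 longer RNAs, 44.2% in RNY1, 45.1% in RNY3 and 52.5% in VTRNA1-1. GATC, which reads the same on both strands, occurred 3 times in RN7SK, between positions 12 and 63, and 10.6% of 5637 transcripts of similar length (within 10%) held as many on the forward strand. It occurred 4 times in each 7SL RNA. The B box, searched as GTTCGANNC on both strands, was found on the forward strand of VTRNA1-1 only, at position 67, and in 0.142% of 2810 transcripts of similar length. TTTT was found on the forward strand at position 110 of RNY1, 99 of RNY3 and 96 of VTRNA1-1, and 43.4% to 44.8% of transcripts of similar length held it.

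How well reads can be assigned differed between the members. The deposited counts have the layout of STAR gene counts, so a read with more than 1 equally good place went to no gene, and such multi-mapping reads made up 55.98% to 69.38% of all reads in the libraries. Of the 50-base windows of RN7SL1, 15.6% occurred once in GRCh38, and 13.1% of those of RN7SL2, while 158 windows were shared between both genes. The value was 22.9% for RN7SK and 100% for RPPH1, RMRP and VTRNA1-1. For RNY1 it was 75%, and for RNY3 none of the 53 windows was unique, with up to 11 occurrences. With 100-base windows RNY1 and RNY3 reached 100%, RN7SK 48% and RN7SL1 25.5%. The read length is not given in the sources used here, so the levels of the 7SL genes, RN7SK and RNY3 count an unknown part of their RNA.

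**Figure D1:**
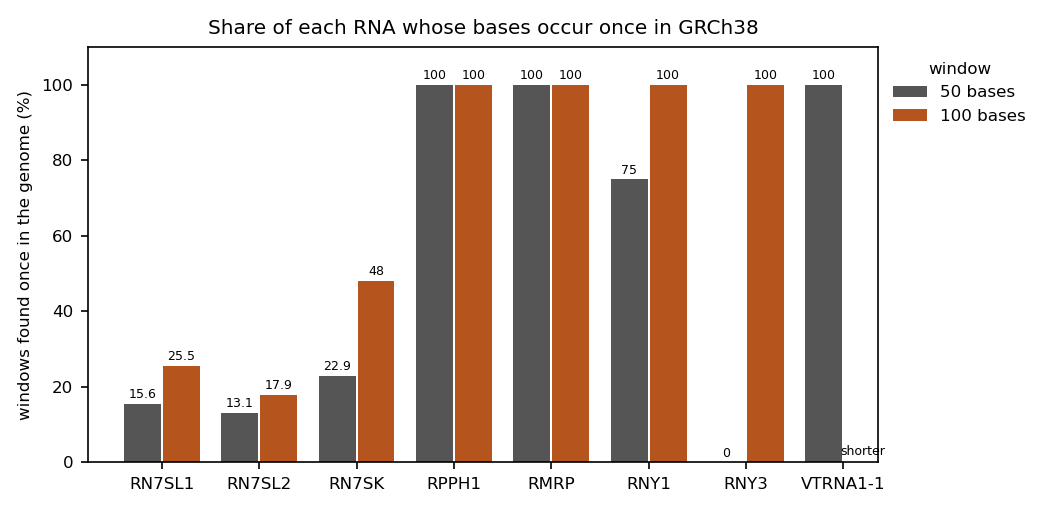
Share of windows of 50 bases (grey) and 100 bases (orange) along each RNA that occur once in GRCh38, in percent; VTRNA1-1 is shorter than 100 bases. RPPH1, RMRP and VTRNA1-1 reached 100% with 50 bases, whereas RN7SL1 was at 15.6%, RN7SL2 at 13.1% and RNY3 at 0%.

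Levels are given as CPM, the count of a gene relative to the 2978982 to 4304103 reads counted on genes per library, expressed per 1e6 and scaled with TMM. The 8 RNAs together took 17.31% to 26.04% of the reads on genes, with a median of 20.98%. The mean share was 21.1% ± 0.817 (SD, n = 3) with DMSO and 23.6% ± 2.12 with ABBV-744 at 50 nM, and the 2 groups did not overlap (exact permutation test, two-sided, p = 0.1, the smallest that 3 against 3 allows). As a share of all reads the order turned, with 2.67% to 3.25% for ABBV-744 50 nM below 3.26% to 3.43% for DMSO. As a share of reads on genes, the mean was 22.1% ± 0.316 with IFNg and 18.1% ± 0.845 with IFNg + ABBV-744 50 nM. These 2 groups did not overlap either (difference -4.03 percentage points, exact permutation p = 0.1). The share with IFNg + ABBV-075 50 nM (20.4% ± 0.992) was also below all IFNg libraries (exact permutation p = 0.1). The other treated groups overlapped with their control in the share of reads on genes. As a share of all reads, ABBV-075 (2.45% to 2.92%) and ABBV-744 500 nM (2.85% to 3.02%) also lay below DMSO without overlap. On that scale IFNg (2.94% to 3.46%) overlapped with DMSO, and IFNg + ABBV-744 500 nM (2.24% to 3.01%) overlapped with IFNg.

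RN7SL1 had the highest count among all genes in every library and RN7SK the second highest, followed by RN7SL2 and RPPH1 in either order, and RMRP had rank 5 to 7. Per kb of RNA, the median level over libraries was 217412 CPM for RN7SL1, 156718 for RN7SK, 133808 for RN7SL2, 110346 for RPPH1 and 66338 for RMRP. It was 920 CPM per kb for RNY1, 30.5 for RNY3 and 20 for VTRNA1-1. Relative to reads on genes, the highest group mean of each of the 5 longer RNAs was that of ABBV-744 50 nM and the lowest that of IFNg + ABBV-744 50 nM. The ratio between these means was 1.35 for RN7SL1, 1.38 for RN7SL2, 1.42 for RN7SK, 1.49 for RPPH1 and 1.4 for RMRP. RNY1 was highest with IFNg + ABBV-075 50 nM (163 ± 39.9 CPM) and lowest with IFNg + ABBV-744 50 nM (69.7 ± 12). As a share of all reads, in contrast, the 8 members together were highest with DMSO (3.33%) and lowest with IFNg + ABBV-744 500 nM (2.59%). VTRNA1-1 did not pass the filter on low counts in any comparison. Its 3 libraries had 9, 8 and 9 counts with DMSO, 2, 7 and 7 with IFNg, and 14, 6 and 16 with IFNg + ABBV-075 50 nM.

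**Figure D2:**
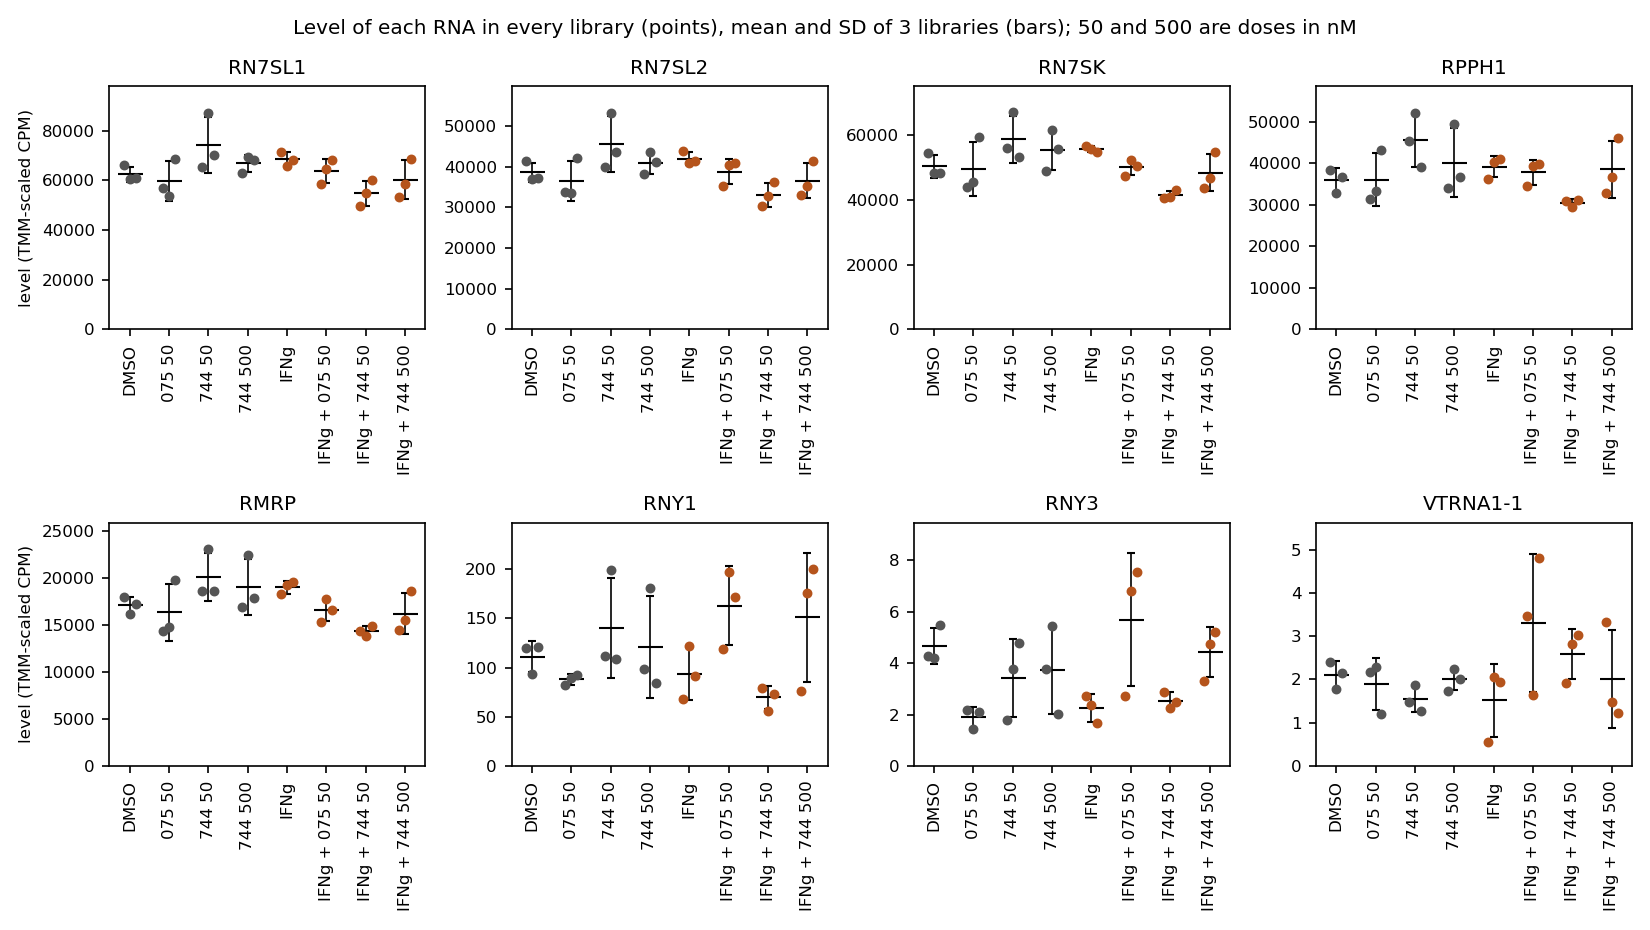
Level of each RNA in TMM-scaled CPM (y axis, from 0) in the 8 groups, with 1 point per library, a line at the mean and bars of 1 SD over 3 libraries; groups without IFNg are grey and groups with IFNg orange. For the 5 longer RNAs the IFNg + ABBV-744 50 nM libraries lie below all IFNg libraries (RN7SK 40684 to 42938 against 54735 to 56755 CPM), and RNY1 and RNY3 spread more widely.

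With ABBV-075 against DMSO, the Y RNAs fell, and the longer RNAs gave no call with TMM scaling and no library left out. RNY3, a Ro60-bound RNA, had 9, 5 and 7 counts in the ABBV-075 libraries and 16, 19 and 23 in the DMSO libraries. All 3 treated libraries were below all controls, and the difference was -1.29 on the log2 scale (SE 0.33, 95% interval -2.01 to -0.57, edgeR adjusted p = 0.00903). RNY1, the other Y RNA, was at 81.9, 89.7 and 92.1 CPM with ABBV-075 and at 120, 93.1 and 121 CPM with DMSO. The groups did not overlap but nearly met, and the difference was -0.36 (SE 0.13, adjusted p = 0.0468). It was -0.15 with the gene length correction (adjusted p = 0.377) and -0.34 with all 24 libraries in the fit (adjusted p = 0.326), and neither passed.

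RN7SK was at 44080, 45471 and 59264 CPM with ABBV-075 and at 54461, 48300 and 48225 CPM with DMSO. ABBV-075 replicate 3 was above all controls and the other two below them, so the groups overlapped (-0.04, SE 0.17, 95% interval -0.40 to 0.32, adjusted p = 0.864). RN7SL1, RN7SL2, RPPH1 and RMRP had differences of -0.10 to -0.02, with intervals of 0.739 to 1.27 on the fold scale. In all, 2 of the 7 tested members were called, both lower, where 39.3% of the 11244 tested genes were called, 19.8% higher and 19.6% lower. Without ABBV-075 replicate 3 the count was 6, and RNY1 lost its call without ABBV-075 replicate 1 or 2 or DMSO replicate 1 or 3 (-0.30 to -0.37). Here and below, the share of all genes called in refits without 1 library is not given beside such counts. With DESeq2 no member was called, and RNY3 had an adjusted p of 0.0707.

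With ABBV-744 at 50 nM against DMSO, RPPH1, the RNA of RNase P, rose. It was at 45378, 52129 and 39118 CPM with ABBV-744 and at 38314, 32855 and 36698 CPM with DMSO, and the groups did not overlap. The difference was 0.36 (SE 0.12, 1.28-fold, 95% interval 1.08 to 1.51, edgeR adjusted p = 0.0345), but -0.07 when all reads of a library were the scale. RN7SL1 had 65442, 87201 and 70073 CPM against 66050, 60459 and 60993 with DMSO, with replicate 2 far above the other libraries (0.26, SE 0.12, adjusted p = 0.124). RN7SL2, RN7SK, RMRP and RNY1 had differences of 0.24 to 0.35 and RNY3 of -0.43 (SE 0.36), and none of them passed.

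Thus 1 of 7 tested members was called, while 18.9% of the 11116 tested genes were called, 8.81% higher and 10.1% lower. In edgeR 5 members had an unadjusted p below 0.05, as many other genes did. The largest of these 5, 0.0384 for RN7SL2, had rank 3411 among all tested genes. Without ABBV-744 replicate 1 the count of called members was 5, and without any 1 DMSO library it was 0, with RPPH1 at 0.30 to 0.40. The multi-mapping share of reads was 66.2% to 69.4% in this group and 56.0% to 61.0% with DMSO, and its part in these differences was not tested. With a correction for GC content RPPH1 was at 0.10 and no member was called.

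With ABBV-744 at 500 nM against DMSO, no member passed the test in edgeR, none had an unadjusted p below 0.05, and DESeq2 called none. RN7SK was at 49008, 61471 and 55788 CPM, overlapping with DMSO (0.15, SE 0.10, 95% interval -0.05 to 0.35, adjusted p = 0.342). RPPH1 was at 33927, 49558 and 36765 CPM, with replicate 2 well above the other two (0.16, SE 0.11). All 7 tested members lay between -0.33 and 0.16, and 15.3% of the 11124 tested genes were called, 7.48% higher and 7.80% lower. Without ABBV-744 500 nM replicate 1, 3 members were called. Between the doses of ABBV-744, where 0.0274% of 10967 genes were called, 0 of 7 members were called by edgeR or DESeq2 and 0 had an unadjusted p below 0.05. The 95% interval of the difference (500 nM against 50 nM) was -0.39 to 0.21 for RN7SK and -0.69 to 0.25 for RNY1.

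With IFNg alone against DMSO, no member was called. RN7SK was at 56755, 55684 and 54735 CPM, each above the highest DMSO library, and differed by 0.14 (SE 0.05, 1.11-fold, adjusted p = 0.156). The other 4 long RNAs had differences of 0.12 to 0.15. RNY3 had 10, 8 and 6 counts against 16, 19 and 23 with DMSO, without overlap, and a difference of -1.04 (SE 0.37, adjusted p = 0.134). RNY1 was at 68.1, 122 and 91.0 CPM and overlapped with DMSO (-0.25, SE 0.12, adjusted p = 0.353). None of the 7 tested members was called by edgeR or DESeq2, while 3.46% of the 11217 tested genes were called, 2.76% higher and 0.695% lower. All 7 had an unadjusted p below 0.05 in edgeR, a limit that many other genes also passed. The largest of the 7, 0.0498 for RNY1, had rank 1580 among all tested genes. Without DMSO replicate 1, 5 members were called, and without IFNg replicate 2, 1 was.

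**Figure D3:**
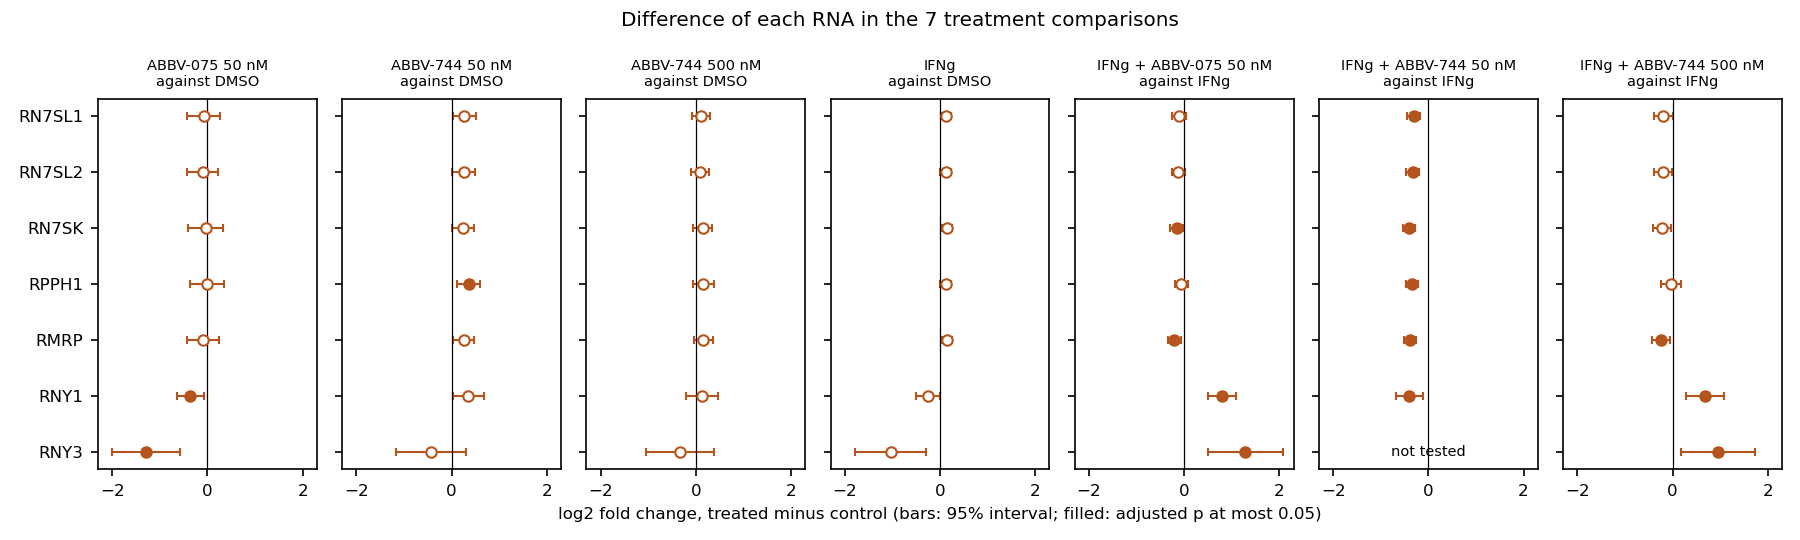
Log2 fold change (x axis) of each tested RNA in the 7 treatment comparisons, as points with 95% intervals from edgeR; filled points had an adjusted p of at most 0.05. The longer RNAs lie below 0 in the IFNg + ABBV-744 50 nM panel (-0.30 to -0.41), and RNY1 and RNY3 lie above 0 with IFNg + ABBV-075 50 nM (0.79 and 1.28) and IFNg + ABBV-744 500 nM (0.68 and 0.96).

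With IFNg + ABBV-075 50 nM against IFNg alone, the Y RNAs rose, and RMRP and RN7SK had smaller decreases that depended on the settings. RNY1 was at 119, 197 and 172 CPM with the inhibitor and at 68.1, 122 and 91.0 CPM with IFNg alone. The lowest treated library lay just under the highest control, and the difference was 0.79 (SE 0.14, 1.73-fold, 95% interval 1.41 to 2.11, edgeR adjusted p = 1.36e-05). RNY3 had 11, 25 and 25 counts against 10, 8 and 6 counts, so that 2 treated libraries were far above the controls and 1 was close to them (1.28, SE 0.39, 2.44-fold, adjusted p = 0.0049). RNY1 was called in all 19 alternative fits (0.60 to 1.02) and RNY3 in all 17 that tested it (1.04 to 1.66).

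RMRP, the RNA of RNase MRP, was at 15371, 17755 and 16616 CPM against 18268, 19220 and 19609 CPM, without overlap (-0.21, SE 0.07, adjusted p = 0.0124). It did not pass with the GC correction (-0.12, adjusted p = 0.171) or with all 24 libraries in the fit (-0.20, adjusted p = 0.152). RN7SK was at 47406, 52236 and 50570 CPM, below all 3 IFNg libraries (-0.16, SE 0.07, adjusted p = 0.0355), but was at 0.06 with the GC correction and was called in 6 of 19 alternatives. RN7SL1, RN7SL2 and RPPH1 had differences of -0.12 to -0.06 and did not pass. In all, 4 of 7 tested members were called, 2 higher and 2 lower, where 56.6% of the 11187 tested genes were called, 28.2% higher and 28.4% lower. Without IFNg + ABBV-075 50 nM replicate 1 only both Y RNAs were called. The ribosomal RNA gene RNA28S5 took 2.31% to 3.81% of the reads on genes in this group and 0.893% to 1.56% with IFNg, and its part in these differences was not tested.

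With IFNg + ABBV-744 50 nM against IFNg alone, all 6 tested members fell. RN7SK was at 40684, 40790 and 42938 CPM with the inhibitor and at 56755, 55684 and 54735 CPM without it. The groups were far apart, and the difference was -0.41 (SE 0.06, 0.755-fold, 95% interval 0.693 to 0.822, edgeR adjusted p = 1.03e-06). RPPH1 was at 30797, 29579 and 31122 CPM against 36301, 40296 and 40939 CPM (-0.34, SE 0.06, adjusted p = 2.58e-05). RMRP was at 14344, 13839 and 14899 CPM, likewise below all 3 controls (-0.39, SE 0.06, adjusted p = 3.91e-06).

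The 7SL genes moved in the same direction. RN7SL1 was at 49778, 54751 and 59962 CPM against 71540, 65828 and 68150 CPM, without overlap (-0.30, SE 0.07, adjusted p = 0.000289), and RN7SL2 differed by -0.32 (SE 0.07, adjusted p = 0.000128). RNY1 was at 79.2, 56.1 and 73.6 CPM and overlapped with the control range of 68.1 to 122 CPM (-0.40, SE 0.14, adjusted p = 0.016). It lost its call without IFNg replicate 2 (-0.16) or IFNg + ABBV-744 50 nM replicate 2 (-0.28). RNY3, with 12, 8 and 9 counts against 10, 8 and 6, did not pass the filter on low counts. In this comparison 51.7% of the 11150 tested genes were called, 27.4% higher and 24.3% lower, and the median difference was -0.36 over the tested members and -0.02 over all genes.

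These decreases depended on corrections for gene properties. The GC correction removes from each library a smooth trend of expression on the GC content of genes, and the length correction removes the corresponding trend on gene length. With the GC correction the differences were 0.00 for RN7SL1, -0.02 for RN7SL2, -0.07 for RN7SK, -0.04 for RPPH1 and -0.08 for RMRP, and RNY1, at -0.54, was the only member called. With the length correction no member was called, with values of -0.15 for RN7SK and -0.04 for RNY1. The share of reads outside genes was 22.8% to 24.1% in this group, and 57.5% to 59.5% of reads were multi-mapping, against 58.3% to 66.4% with IFNg. In contrast, the rise of RNY1 with IFNg + ABBV-075 50 nM was 0.79 with and without the GC correction.

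**Figure D4:**
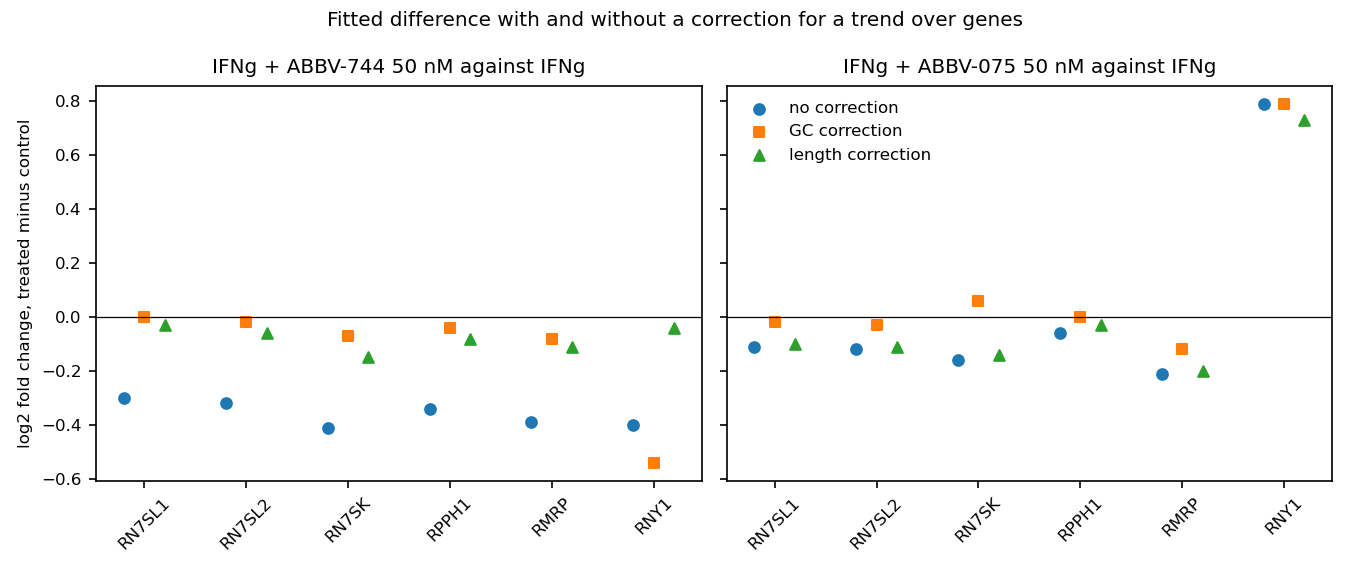
Log2 fold change (y axis) of 6 RNAs against IFNg alone, without correction (circles), with the GC correction (squares) and with the length correction (triangles), for IFNg + ABBV-744 50 nM (left) and IFNg + ABBV-075 50 nM (right). In the left panel the values of the 5 longer RNAs move from -0.30 to -0.41 to between -0.08 and 0.00 with the GC correction, while RNY1 in the right panel stays near 0.79.

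With IFNg + ABBV-744 500 nM against IFNg alone, the Y RNAs rose, RNY1 in 17 of 19 alternatives and RNY3 in 10 of 18. RNY1 was at 75.8, 176 and 200 CPM, with replicate 1 inside the control range and the other two above it (0.68, SE 0.20, 1.61-fold, 95% interval 1.21 to 2.13, edgeR adjusted p = 0.00545). RNY3 had 10, 16 and 17 counts against 10, 8 and 6 (0.96, SE 0.38, adjusted p = 0.0389). RMRP was at 14449, 15548 and 18626 CPM and overlapped with the control range of 18268 to 19609 CPM (-0.24, SE 0.09, adjusted p = 0.0307, and -0.08 with the GC correction, adjusted p = 0.405). RN7SK, at 43513, 46851 and 54726 CPM, did not pass (-0.22, SE 0.09, adjusted p = 0.0536).

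So 3 of 7 tested members were called, 2 higher and 1 lower, where 45.7% of the 11091 tested genes were called, 22.9% higher and 22.8% lower. The 2 doses of ABBV-744 with IFNg share the control libraries. RNY1 differed from IFNg alone by -0.40 at 50 nM and by 0.68 at 500 nM, and the difference between these doses in the presence of IFNg was not tested. Without IFNg + ABBV-744 500 nM replicate 3 RNY1 was at 0.45 and no longer called, and the count of called members was 5. RNA28S5 took 2.29% to 2.54% of the reads on genes here.

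Whether the response to an inhibitor differed with IFNg was tested as an interaction, the log2 fold change with IFNg minus that without it. For ABBV-744 at 50 nM it was -0.67 for RN7SK (SE 0.11, 95% interval -0.89 to -0.46, edgeR adjusted p = 6.24e-06) and -0.72 for RPPH1 (SE 0.11, adjusted p = 6.7e-06). RMRP (-0.66), RN7SL2 (-0.61), RN7SL1 (-0.59) and RNY1 (-0.77) passed as well, so that 6 of 7 tested members were lower, all but RNY3. Of the 11451 tested genes 51.6% were called, 26.5% lower, and the median was -0.66 over the tested members and -0.14 over all genes. The interaction of the 5 longer RNAs was between -0.14 and -0.01 with the GC correction, and RNY1 lost its call without ABBV-744 50 nM replicate 2 (-0.44) or IFNg replicate 2 (-0.54).

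For ABBV-744 at 500 nM, RMRP (-0.39, SE 0.13, adjusted p = 0.0213) and RN7SK (-0.34, SE 0.12, adjusted p = 0.0275) passed, 2 of 7 tested members, where 33.5% of 11428 genes were called, 15% lower. No member was called without DMSO replicate 2 or 3, IFNg replicate 3 or IFNg + ABBV-744 500 nM replicate 2, 1 was called without IFNg replicate 2, and 4 were called without DMSO replicate 1 or IFNg + ABBV-744 500 nM replicate 3. RN7SK was at 0.03 with the GC correction. For ABBV-075 the Y RNAs had the largest values of the members, RNY1 1.13 (SE 0.26, 2.2-fold) and RNY3 2.56 (SE 0.55, 5.9-fold). Neither passed (adjusted p = 0.208 and 0.178), so 0 of 7 members were called by edgeR, while 0.0347% of 11530 genes were called. DESeq2 called 1 member, and 2 had an unadjusted p below 0.05 in edgeR. The share of all genes below that unadjusted limit is not given here. RNY1 and RNY3 were both called without ABBV-075 replicate 1 or without IFNg + ABBV-075 50 nM replicate 1.

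The 2 inhibitors could be compared at the same dose of 50 nM, although no time is given for ABBV-744. RNY1 was lower with ABBV-075 (81.9, 89.7 and 92.1 CPM) than with ABBV-744 (112, 199 and 109 CPM), without overlap. The difference was -0.68 (SE 0.21, 95% interval -1.15 to -0.22, edgeR adjusted p = 0.026), and -0.34 without ABBV-744 50 nM replicate 2, which ended the call. RN7SL1 (interval -0.72 to 0.08), RN7SK (-0.65 to 0.14) and RPPH1 (-0.75 to 0.05) did not pass, and these intervals include decreases of up to 0.75. Thus 1 of 6 tested members was called, where 40.8% of 10992 genes were called, 19.4% lower, and without ABBV-075 replicate 3 all 6 were.

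Ratios of 2 members within a library do not depend on how libraries are scaled. The 2 RNAs of a ratio can still differ in length, base composition and uniqueness, and the part of these was not tested. RN7SL1 had 1.59 to 1.68 reads per read of RN7SL2 in all 24 libraries (median 1.64, CV 1.61%), and the ratio of RN7SK to RN7SL1 ran from 0.716 to 0.887 (CV 5.03%). The ratio of RPPH1 to RMRP was 1.99 to 2.48. It was higher without overlap with ABBV-075 than with DMSO (difference 0.07 on the log2 scale), with IFNg + ABBV-075 50 nM than with IFNg (0.15) and with IFNg + ABBV-744 500 nM than with IFNg (0.20). Each of these had an exact permutation p of 0.1, the smallest possible, and 36 such ratio tests were made.

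Of the 4 ratios examined, that of RNY1 to RN7SL1 varied most, with 0.952 to 3.06 reads per 1000 reads of RN7SL1 (CV 33.7%). The ratio was 2.03, 3.06 and 2.52 with IFNg + ABBV-075 50 nM and 0.952, 1.86 and 1.34 with IFNg alone. The groups did not overlap, and the difference was 0.91 on the log2 scale (exact permutation p = 0.1). With IFNg + ABBV-744 500 nM it was 1.42, 3.0 and 2.91, which overlapped with IFNg (0.80, exact permutation p = 0.2). With IFNg + ABBV-744 50 nM the ratio was 1.59, 1.03 and 1.23 (-0.08, exact permutation p = 0.8).

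**Figure D5:**
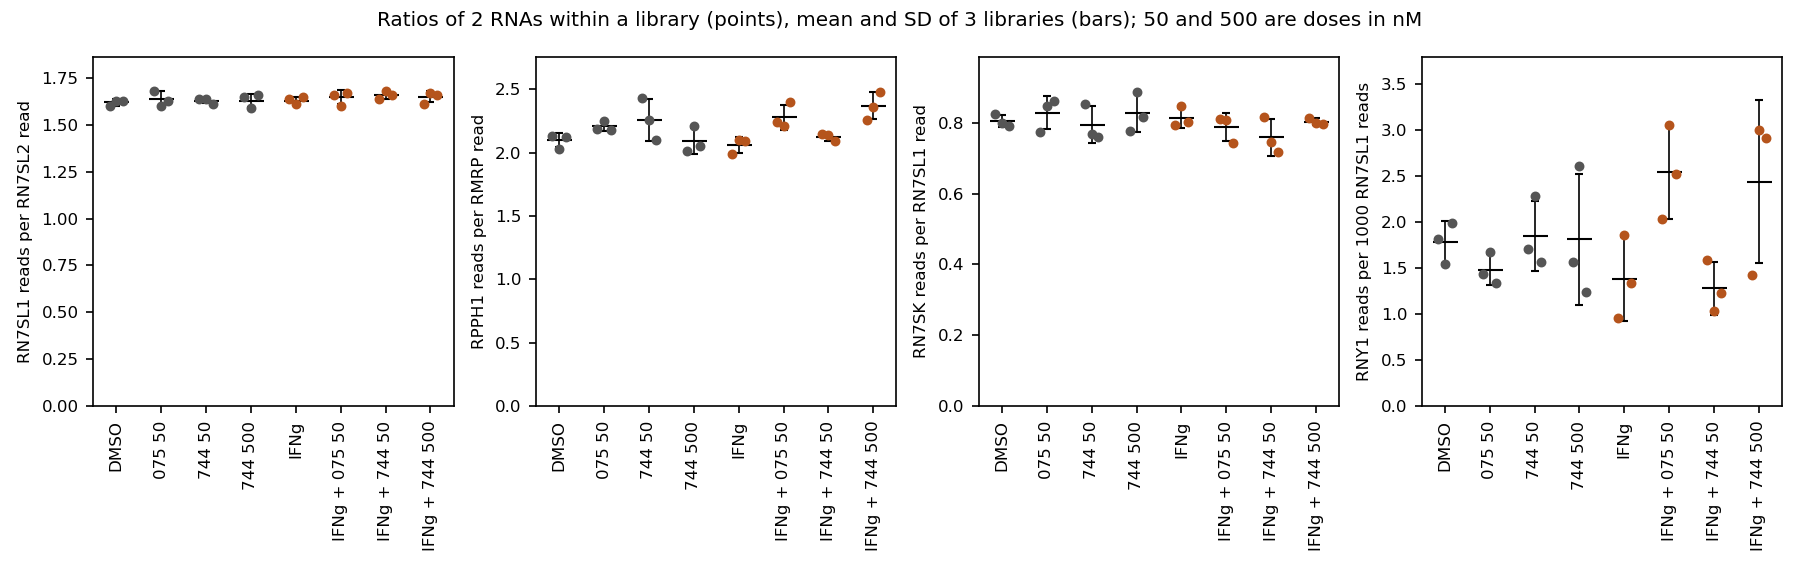
Reads of 1 member per read of another (per 1000 reads for RNY1 to RN7SL1) in each library, with the mean and SD of 3 libraries; y axes start at 0, and groups with IFNg are orange. RN7SL1 to RN7SL2 stays between 1.59 and 1.68, whereas RNY1 to RN7SL1 ranges from 0.952 to 3.06 and is above all IFNg libraries in IFNg + ABBV-075 50 nM.

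The 5 longer RNAs varied together. Over the 8 group means of log2 CPM, Pearson's r was 0.9 to 1.0 for their 10 pairs, and over the deviations of the 24 libraries from their group means it was 0.71 to 0.98. RNY1 had r of 0.4 to 0.68 and 0.51 to 0.78 with them. These RNAs were counted in the same libraries and share whatever depth and base composition each library has, so the values describe likeness alone. Among 7450 genes, AURKAIP1, TSFM and SNX21 were most like RN7SL1 over the 8 group means (r = 0.98 to 0.99), TARBP2 and SAMD4B among those most like RN7SK (0.98), NDUFAF3, YY1AP1 and C19orf48 most like RPPH1 (0.97 to 0.99), and SAMD4B and SMG5 among those most like RMRP (0.99). Within groups TARBP2 kept r of 0.68 with RN7SK, whereas SAMD4B had 0.06.

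Of 6 tested genes beside the members, 2 gave a call. RN7SL1 lies within RPS29, which encodes a ribosomal protein, on the opposite strand and outside its annotated exons. GSTA4 lies 317 bp from RN7SK, PARP2 208 bp from RPPH1 and CCDC107 273 bp from RMRP, each on the opposite strand, and ARHGEF39 and ZMAT2 lie 858 bp and 4589 bp from RMRP and VTRNA1-1 on the same strand. In the 7 treatment comparisons PARP2 passed with ABBV-744 50 nM (-0.45, SE 0.15, adjusted p = 0.0346) and RPS29 with IFNg + ABBV-744 500 nM (-0.24, SE 0.09, adjusted p = 0.03), and none of the other 4 tested neighbours passed. Over these comparisons 3.46% to 56.6% of all genes were called, 18.9% with ABBV-744 50 nM and 45.7% with IFNg + ABBV-744 500 nM. Reads on the strand opposite to the 8 members numbered 127 to 582 per library.

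Of 7 genes for proteins that bind 7SK or form P-TEFb, 3 rose and 1 fell with ABBV-075, where 39.3% of all genes were called: HEXIM1 (1.41), CCNT2 (0.82, SE 0.18, adjusted p = 0.00357) and CCNT1 (0.45, SE 0.13, adjusted p = 0.0145), both cyclin T genes, and HEXIM2 in the other direction (-1.01, SE 0.23, adjusted p = 0.00432). HEXIM1 was at 137, 146 and 152 CPM with ABBV-075 against 54.0, 56.7 and 50.5 CPM with DMSO, and at 136, 128 and 140 CPM with IFNg + ABBV-075 50 nM against 47.7, 49.2 and 44.7 CPM with IFNg. With ABBV-744 it was at 67.9, 66.8 and 60.2 CPM at 50 nM and at 93.7, 84.1 and 90.1 CPM at 500 nM. No library of ABBV-075 overlapped with those of ABBV-744.

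In the presence of IFNg, 56.6% of all genes were called for ABBV-075, 51.7% for ABBV-744 50 nM and 45.7% for ABBV-744 500 nM. The shares were 18.9% with ABBV-744 50 nM, 15.3% with ABBV-744 500 nM and 3.46% with IFNg alone. With IFNg + ABBV-075 50 nM, 4 of the 7 rose and HEXIM2 fell (-0.55, SE 0.23, adjusted p = 0.0428), and LARP7, which holds the 3' end of 7SK, was among those that rose (1.06, SE 0.3, adjusted p = 0.00259, and 0.66 without IFNg replicate 3). With IFNg + ABBV-744 50 nM CCNT2 (1.31, SE 0.10, adjusted p = 1.31e-12), CCNT1 (0.91, SE 0.10, adjusted p = 1.9e-09) and LARP7 (0.86, SE 0.31, adjusted p = 0.0218, and 0.47 without IFNg replicate 3) rose and MEPCE, which caps 7SK, fell (-0.44, SE 0.12, adjusted p = 0.00182), while HEXIM1 did not pass (0.09, SE 0.13). With IFNg + ABBV-744 500 nM 4 rose and 0 fell, HEXIM1 among them (0.58, SE 0.12, adjusted p = 0.000121). With ABBV-744 500 nM alone HEXIM1 rose and LARP7, at 5 to 13 counts, fell (-1.11, SE 0.34, adjusted p = 0.0233). None passed with ABBV-744 50 nM or with IFNg alone. The median of the 7 was 0.34 with ABBV-075, 0.65 with IFNg + ABBV-075 50 nM and 0.09 with IFNg + ABBV-744 50 nM.

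Of the 8 genes for signal recognition particle proteins and their receptor, 3 rose and 3 fell with IFNg + ABBV-075 50 nM and with IFNg + ABBV-744 500 nM, and 4 rose and 4 fell with IFNg + ABBV-744 50 nM. In the same order, 28.2%, 22.9% and 27.4% of all genes were called higher and 28.4%, 22.8% and 24.3% lower. SRP54, the GTPase of the particle, rose by 0.83 (SE 0.10, adjusted p = 1.36e-08) and 0.99 (SE 0.09, adjusted p = 8.23e-11) with IFNg + ABBV-075 50 nM and IFNg + ABBV-744 50 nM, and SRP68 fell there (-0.84, SE 0.12, and -0.73, SE 0.11). SRP9, which binds the Alu end of 7SL, rose by 0.41 with IFNg + ABBV-075 50 nM and 0.54 with IFNg + ABBV-744 500 nM but was at -0.22 and -0.14 there with the GC correction. Without IFNg 1 rose and 2 fell with ABBV-075, 0 rose and 2 fell with ABBV-744 50 nM, and 1 fell with ABBV-744 500 nM. In the same order, 39.3%, 18.9% and 15.3% of all genes were called. Of 11 RNase P and RNase MRP proteins, 9 were tested and POP7 fell with ABBV-075 (-0.52, SE 0.15, adjusted p = 0.0145), with IFNg + ABBV-075 50 nM (-0.73, SE 0.13, adjusted p = 5.82e-06) and with both doses of ABBV-744 in the presence of IFNg (-0.56 each). POP1 also fell with IFNg + ABBV-075 50 nM (-0.43, SE 0.14, adjusted p = 0.0106) and IFNg + ABBV-744 500 nM (-0.39, SE 0.14, adjusted p = 0.0216). Among all genes, 19.6% were called lower with ABBV-075. With IFNg present, 28.4%, 24.3% and 22.8% were called lower for ABBV-075, ABBV-744 50 nM and ABBV-744 500 nM. RPP25L rose with ABBV-744 50 nM (0.60, SE 0.19, adjusted p = 0.0302), and no other gene of this list rose in any of the 7 comparisons.

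Of 5 Ro60, La and vault proteins, RO60 (listed as TROVE2), the partner of the Y RNAs, rose with ABBV-075 (0.95, SE 0.33, adjusted p = 0.0364, but 0.42 and not called without ABBV-075 replicate 1) and with IFNg + ABBV-075 50 nM (1.47, SE 0.13, adjusted p = 4.05e-12). It also rose with IFNg + ABBV-744 50 nM (1.69, SE 0.12, adjusted p = 3.62e-13) and 500 nM (1.54, SE 0.13, adjusted p = 3.98e-11). RNY1 and RO60 thus moved in opposite directions with ABBV-075 and with IFNg + ABBV-744 50 nM, and in the same direction with IFNg + ABBV-075 50 nM and IFNg + ABBV-744 500 nM. With ABBV-744 50 nM alone RO60 fell (-0.55, SE 0.18, adjusted p = 0.0329, and -0.31 without ABBV-744 50 nM replicate 2). SSB, which encodes La, rose in the 3 inhibitor groups with IFNg (0.57, 0.82 and 0.89). MVP, the main protein of vaults, rose with IFNg (0.90, SE 0.11, adjusted p = 6.74e-08) and fell with ABBV-075 (-0.74, SE 0.16, adjusted p = 0.00405) and with each inhibitor in the presence of IFNg (-0.98, -0.82 and -0.71). Of the other vault proteins listed, TEP1 rose with ABBV-075 (0.55, SE 0.17), ABBV-744 50 nM (0.7, SE 0.17) and ABBV-744 500 nM (0.58, SE 0.17). PARP4 rose with IFNg + ABBV-744 50 nM (0.35, SE 0.08). Among all genes, 39.3%, 18.9% and 15.3% were called for ABBV-075, ABBV-744 50 nM and ABBV-744 500 nM, and 3.46% for IFNg alone. With IFNg present, the shares for the inhibitors were 56.6%, 51.7% and 45.7% in the same order.

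Of 13 genes for subunits of RNA polymerase III, 6 fell and 0 rose with IFNg + ABBV-075 50 nM, 6 fell and 2 rose with IFNg + ABBV-744 50 nM, and 6 fell and 1 rose with IFNg + ABBV-744 500 nM, where 28.4%, 24.3% and 22.8% of all genes were called lower. POLR3D fell in all 3 of these, with a difference of -0.78 for IFNg + ABBV-744 50 nM (SE 0.13, adjusted p = 1.06e-05), while POLR3F rose there (0.74, SE 0.14, adjusted p = 5.74e-05), as did POLR3G (0.76, SE 0.21, adjusted p = 0.00253), which was at -0.27 with the GC correction. Without these combinations, 2 fell with ABBV-075, 2 fell with ABBV-744 50 nM, and none passed with ABBV-744 500 nM or IFNg alone. In the same order, 19.6%, 10.1%, 7.8% and 0.695% of all genes were called lower. Among 19 genes for initiation factors and for MAF1, the repressor of the polymerase, GTF3C6, a subunit of TFIIIC, fell with ABBV-075 (-2.11, SE 0.26, adjusted p = 0.000105) and with IFNg + ABBV-075 50 nM (-2.13, SE 0.32, adjusted p = 4.89e-07). BDP1, a subunit of TFIIIB, rose in both (0.91, SE 0.24, and 0.99, SE 0.17). In that list 3 rose and 2 fell with ABBV-075, 3 and 1 with ABBV-744 50 nM, 1 and 1 with ABBV-744 500 nM, 0 and 0 with IFNg, 6 and 3 with IFNg + ABBV-075 50 nM, 5 and 2 with IFNg + ABBV-744 50 nM, and 4 and 1 with IFNg + ABBV-744 500 nM. The shares of all genes called were, in the same order, 39.3%, 18.9%, 15.3%, 3.46%, 56.6%, 51.7% and 45.7%.

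Other small structured RNAs were listed for comparison, 17 in all, of which 12 or 13 were tested. Among all genes, 24.3% were called lower with IFNg + ABBV-744 50 nM. Called higher were 8.81% with ABBV-744 50 nM, 7.48% with ABBV-744 500 nM and 2.76% with IFNg. With IFNg present, 28.2% were called higher for ABBV-075 and 22.9% for ABBV-744 500 nM, and ABBV-075 alone had 39.3% called. With IFNg + ABBV-744 50 nM 6 of 12 fell and 0 rose, among them the spliceosomal RNAs RNU4-1 (-0.49, SE 0.12, adjusted p = 0.000906), RNU4-2 (-0.49, SE 0.12, adjusted p = 0.000667) and the brain cytoplasmic RNA BCYRN1 (-0.96, SE 0.27, adjusted p = 0.00322). With ABBV-744 50 nM alone 4 of 12 rose and 0 fell, RNU4-2 by 0.63 (SE 0.10, adjusted p = 0.000198), RNU4-1 by 0.57 (SE 0.10, adjusted p = 0.000521) and RNU11 by 0.47 (SE 0.16, adjusted p = 0.0355, and 0.23 without ABBV-744 50 nM replicate 2). With IFNg + ABBV-075 50 nM 6 of 13 rose and 1 fell, led by RNU5B-1 (0.92, SE 0.20, adjusted p = 0.000179), and with IFNg + ABBV-744 500 nM 5 rose and 1 fell. None passed with ABBV-075 alone, RNU4-1 and RNU4-2 rose with ABBV-744 500 nM (0.52 and 0.55), the first at 0.15 without ABBV-744 500 nM replicate 2, and VTRNA1-3, another vault RNA, rose with IFNg (0.44, SE 0.11, adjusted p = 0.00872, and 0.29 without IFNg replicate 2). The medians of this list, 0.28 with ABBV-744 50 nM and -0.32 with IFNg + ABBV-744 50 nM, lay beside medians of 0.26 and -0.36 over the tested members.

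Over these 7 lists of 80 genes, 24.7% of the tested genes were called with ABBV-075, 20.8% with ABBV-744 50 nM, 11% with ABBV-744 500 nM and 2.78% with IFNg. With IFNg present, 52.1% were called for ABBV-075, 52.8% for ABBV-744 50 nM and 44.6% for ABBV-744 500 nM. The share was above that of all genes called for ABBV-744 50 nM without and with IFNg (18.9% and 51.7% of all genes) and below it in the other 5 comparisons. Of the markers of other cell types 3 of 8 were tested, and their summed level over all 8 was 102 to 122 CPM with DMSO, 60.5 to 80.2 with ABBV-075, 106 to 114 with IFNg and 60.5 to 73.9 with IFNg + ABBV-075 50 nM. It was 82.3 to 98.7 CPM in the 4 groups with ABBV-744. EPCAM, with 129 to 358 counts, had the highest counts of the 8 and weighs most in this sum. With ABBV-075 against DMSO, EPCAM (-0.66, SE 0.18) and CD68 (-0.81, SE 0.21) were called lower, and ACTA2 did not pass (-0.35, SE 0.19). Fewer cells with an RNA and less of it per cell cannot be told apart in these bulk libraries.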

How the data were processed

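RNA was depleted of ribosomal RNA, made into directional libraries and sequenced for 24 HepG2 samples, 3 in each of 8 groups. The authors deposited raw counts per gene in the layout of STAR gene counts. Their methods and processing notes name CASAVA 1.8.2, Trimmomatic 0.33, STAR 2.7.1, DESeq2 and hg38. The annotation used for counting and the read length are not given in the sources used here. Reads that align to several places are left out of such counts, which lowers the values of RNAs with near-identical copies. Column 4 of each file, the strand on which members had reads, was used, and the unstranded column 2 was an alternative. Depth was 2978982 to 4304103 reads on genes per library, so RNY3 (5 to 25 counts) and VTRNA1-1 (2 to 16) were measured with little precision.

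Genes were kept by filterByExpr, scaled with TMM and tested with edgeR 4.0.16 (glmQLFit and glmQLFTest, R 4.3.3) on the libraries of the groups compared, with Benjamini-Hochberg adjustment over all genes tested and a call at an adjusted p of at most 0.05. No member reached the study's own limit of 1.5 on the log2 scale together with a call in any pairwise comparison. Set beside these fits were shares and ratios (exact permutation tests, two-sided, smallest p 0.1), likeness (Pearson's r), and transcript sequence. Alternatives were DESeq2 1.42.0, other scalings and filters, all 24 libraries in 1 fit, a replicate block, a GC or gene length correction (lowess span 0.3) and each library left out. For the corrections 24545 of 26475 symbols were paired with GENCODE v44, 1384 of them by synonym. The log2 CPM in which these trends were fitted used a prior count of 2, which was not set for the fold changes. The scripts were tested on simulated data: of 50 genes changed by 1 on the log2 scale between ABBV-075 and DMSO, 92% (lower) and 96% (higher) were called, and 0.109% of unchanged genes were. For the interaction with IFNg the shares were 50% and 46%. The simulation gave all genes the same spread, drew libraries independently, and changed only genes above low counts and outside the members. Its shares therefore do not carry over to RNAs as variable as RNY1 or as low as RNY3. Python 3.11.15, numpy 2.4.6, pandas 2.3.3, scipy 1.17.1 and matplotlib 3.10.9 were used.

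The members and all gene lists were chosen with earlier results of these data known. Named were all 8 members, from each list up to 3 called genes with the largest change in each direction and any 7SK or P-TEFb partner, the genes that check the labels, the 3 genes most like RN7SL1, RN7SK, RPPH1 and RMRP among genes at or above 4 in mean log2 CPM, and genes within 5000 bp of a member. Some sequences and genes that this rule would name are not reported here.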

Additional observations from a re-analysis of the deposited data

Results flagged for a closer look

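A difference between the response to ABBV-744 with and without IFNg, tested as an interaction in edgeR, singled out 8 results. At 50 nM the interaction was -0.59 for RN7SL1, -0.61 for RN7SL2, -0.67 for RN7SK, -0.72 for RPPH1, -0.66 for RMRP and -0.77 for RNY1 on the log2 scale, each lower with IFNg than without. At 500 nM it was -0.34 for RN7SK and -0.39 for RMRP. Of all genes tested, 51.6% were called at 50 nM and 33.5% at 500 nM. With the GC correction the 5 longer RNAs were at -0.14 to -0.01 at 50 nM, and with all reads as the scale 0 members were called there. With 3 libraries in each group, no formal test for a library apart from its group was made.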

How the results depend on the processing

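The alternatives were set for the members; those for the gene lists were chosen after seeing the data. The cause of the changes below was not tested. Except where calls over all genes are given, the counts of members stand without the share of all genes called in the same refit. Those counts therefore describe the settings and do not set the members apart from other genes. Members called were, with DESeq2, 0 for ABBV-075 against DMSO, 1 for IFNg + ABBV-744 500 nM and 1 for the ABBV-075 interaction. All reads as the scale shifted the median of all genes by -0.42 for ABBV-744 50 nM and to 0.39 for its interaction. With that scale the counts were 3 for ABBV-075, 0 for ABBV-744 50 nM (RPPH1 at -0.07), 2 for ABBV-744 500 nM and 2 for IFNg + ABBV-744 50 nM. They were 0 between the inhibitors, and 0 and 1 for the interactions of ABBV-744 at 50 nM and 500 nM. With no filter they were 6 for ABBV-744 50 nM, 1 for IFNg, 5 for IFNg + ABBV-744 500 nM, and 2 and 5 for the interactions of ABBV-075 and ABBV-744 500 nM. With at least 10 counts in every library they were 1 for ABBV-075 and 1 for the ABBV-744 500 nM interaction. With library size only, 5 were called for IFNg + ABBV-744 500 nM. With all 24 libraries in the fit they were 1 for ABBV-075, 0 for ABBV-744 50 nM, 1 for IFNg + ABBV-744 500 nM, 5 between the inhibitors and 0 for the ABBV-744 500 nM interaction. With the length correction they were 1 for ABBV-075, 0 for IFNg + ABBV-744 50 nM, 5 for IFNg + ABBV-744 500 nM, 0 between the inhibitors, and 3 and 4 for the ABBV-744 interactions at 50 nM and 500 nM.

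With the GC correction, alone and with the replicate block, the counts were 0 for ABBV-744 50 nM, 2 for IFNg + ABBV-075 50 nM (RN7SK at 0.06), 1 for IFNg + ABBV-744 50 nM (RN7SL1 at 0.01 with the block), and 2, 1 and 0 for the interactions of ABBV-075, ABBV-744 50 nM and ABBV-744 500 nM (RN7SK at 0.03). SRP9 was at -0.22 with IFNg + ABBV-075 50 nM and -0.14 with IFNg + ABBV-744 500 nM, and POLR3G at -0.27 with IFNg + ABBV-744 50 nM. The replicate block alone gave 1 call for ABBV-075 and 0 for ABBV-744 50 nM. Deviations of same-numbered libraries from their group means had r of -0.18 to 0.34, and no comparison had every pair above 0.1. Between the 2 doses of ABBV-744 r was 0.06 to 0.33, and whether same-numbered libraries share a batch was not tested.

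Leaving out 1 library gave 1 to 6 calls for ABBV-075, 0 to 5 for ABBV-744 50 nM, 0 to 3 for ABBV-744 500 nM, 0 to 5 for IFNg, 2 to 4 for IFNg + ABBV-075 50 nM, 5 to 6 for IFNg + ABBV-744 50 nM, 1 to 5 for IFNg + ABBV-744 500 nM, 0 to 6 between the inhibitors, and 0 to 2, 5 to 6 and 0 to 4 for the interactions of ABBV-075, ABBV-744 50 nM and ABBV-744 500 nM. As a share of all reads, the members took 3.33% with DMSO, 2.74% with ABBV-075, 2.98% with ABBV-744 50 nM, 2.91% with ABBV-744 500 nM and 3.2% with IFNg, and with IFNg 2.7%, 2.66% and 2.59% for ABBV-075, ABBV-744 50 nM and ABBV-744 500 nM. Listed genes called for ABBV-744 50 nM (15) were 32 with all reads, 7 with DESeq2, 8 with all 24 libraries, 5 with the GC correction, and 6 to 21 without 1 library. For ABBV-744 500 nM (8) they were 21, 2 and 4 in the first 3 of these settings and 2 to 15 without 1 library. For IFNg (2) they were 1 with all 24 libraries and 1 to 4 without 1 library, and for ABBV-075 (18) 7 to 28. For IFNg + ABBV-744 50 nM (38) they were 23 with the GC correction and 22 with the block added. All genes called for ABBV-744 50 nM numbered 2102, 5005 with all reads and 1196 with the GC correction. For ABBV-744 500 nM they numbered 1700, and 3431 with all reads. For the ABBV-744 interactions they were 5905 and 3827, and 2335 and 1914 with the GC correction.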
